A study of Mus musculus with 6 samples.

Results

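Iron storage, import and export genes were followed as a set of 10 members among the 55487 genes in the files: Ftl1, Fth1, Ncoa4, Tfrc, Steap3, Slc11a2, Slc40a1, Hmox1, Ireb2 and Aco1. They were chosen by symbol under a rule that names no measured value, with earlier results of these data known. Each symbol had 1 identifier, and all 10 passed the filter on low counts. RNA sequencing counts came from 6 mouse libraries titled as ovarian granulosa cells, which line the follicle and nourish the egg. The CPC group held 3 wild-type libraries treated with cetylpyridinium chloride (CPC), a positively charged surfactant with antiseptic use. The control group held 3 wild-type libraries given phosphate-buffered saline (PBS). The labels state neither dose, duration, strain nor age, nor whether exposure took place in the animal or in culture. The same records also name SKOV3, a human ovarian cancer line, and a GATA4 transfection, which the mouse gene identifiers in the files do not match.

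Animal cells take up transferrin-bound iron through the transferrin receptor, reduce it in the endosome and pass it to the cytosol. Iron not used at once is stored inside ferritin shells, released again when ferritin is delivered to lysosomes, or exported by ferroportin. Iron regulatory proteins (IRPs) sense the cytosolic pool and bind iron-responsive elements, short hairpins in the untranslated regions (UTRs) of several of these mRNAs. A hairpin before the coding sequence lets an IRP block translation without requiring a change in mRNA, and hairpins after it protect the transferrin receptor mRNA from decay. In the ovary, granulosa cells need iron for the heme and iron-sulfur proteins of steroid synthesis.

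The hairpins are shown because they sort the members by the kind of control that a count of mRNA can or cannot register. A search of GENCODE M21 protein-coding transcripts (GRCm38) looked for a C, 5 bases, the loop CAGTGN of 6 bases, and 5 bases able to pair with the first 5, in the sense strand of UTRs. With at least 4 of the 5 pairs required, it found 8 elements in 5 of the 10 members. In the 27 bases printed for each, from 5′ to 3′, capitals mark the bulged C and the loop.
Ftl1, 5′ UTR, chr7:45459780-45459806, minus strand: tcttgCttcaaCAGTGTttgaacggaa
Fth1, 5′ UTR, chr19:9982733-9982759, plus strand: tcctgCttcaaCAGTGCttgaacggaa
Slc40a1, 5′ UTR, chr1:45925466-45925492, minus strand: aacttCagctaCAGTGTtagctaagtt
Tfrc, 3′ UTR, chr16:32631220-32631246, plus strand: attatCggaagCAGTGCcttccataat
Tfrc, 3′ UTR, chr16:32631599-32631625, plus strand: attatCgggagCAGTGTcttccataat
Tfrc, 3′ UTR, chr16:32631664-32631690, plus strand: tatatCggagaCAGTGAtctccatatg
Tfrc, 3′ UTR, chr16:32631711-32631737, plus strand: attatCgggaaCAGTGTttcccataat
Slc11a2, 3′ UTR, chr15:100395154-100395180, minus strand: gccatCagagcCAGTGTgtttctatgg

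The elements of both ferritin chains differed at 2 of 27 positions, T3C and T17C, with positions counted from the 5′ end of the printed bases and the Ftl1 base given first. Of the 8 elements, 7 had all 5 pairs, and the Slc11a2 element had 4. Slc11a2 has transcripts with other 3′ ends, and the counts per gene do not separate them. Among 21901 genes searched, 0.142% held an element with 5 pairs in a 5′ UTR and 0.584% held one in a 3′ UTR. With 4 pairs allowed the shares were 0.927% and 3.97%. A match is a description of these letters, and binding was not measured.

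Library totals were 19837674 to 22535261 counts in CPC and 19079345 to 23157541 in control. Levels of single genes are given in CPM, each count relative to its library total, scaled by TMM, a factor that corrects for library composition. Groups were compared with edgeR's quasi-likelihood test on all 15000 genes that passed the filter, with Benjamini-Hochberg adjustment at 0.05. Log2 changes are CPC over control with their standard errors (SE). The labelled cell type was checked against granulosa markers: Inha had 835 to 1341 CPM in CPC and 1582 to 1952 CPM in control. Of 11 tested granulosa markers 7 fell in CPC, against 19.7% of all tested genes, and their part in the iron results was not tested. Amh, the hormone gene of small growing follicles, had at most 3 counts in any library, and Cyp19a1, the aromatase gene, stayed between 0.423 and 1.35 CPM. The labels do not say whether replicates are separate animals, separate cultures or repeats of 1 preparation, so each p-value reflects library-to-library spread that may be technical. Libraries with the same replicate number deviated together, so a fit with that number as a block is given where it changes a call.

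Of the 10 members, 3 rose in CPC (Hmox1, Ncoa4 and Slc11a2) and 1 fell (Aco1). Across all tested genes 19.6% rose and 19.7% fell, 39.3% in either direction, so 4 of 10 members called lies near the background share. With the replicate number as a block, 5 members rose and 2 fell, as Fth1, Ftl1 and Slc40a1 passed too, where 26.5% of all genes rose and 27.9% fell. DESeq2 called 3 rises and 2 falls, where 19.7% of all genes rose and 20.4% fell, 40.1% in all. The block called 54.4% in either direction. The groups did not overlap for 5 of 10 members, against 53.5% of all tested genes. The members' median log2 change was 0.10, against -0.0032 over all tested genes. Leaving out 1 library also lowered the background, to between 25.9% and 33.8% of all genes in either direction. By direction, 12.6% to 17% of all genes rose and 13.3% to 16.8% fell. Rising members numbered 1 without CPC 3 or control 2. Without control 1 edgeR called 0 rises, with 3 at an unadjusted p under 0.05. Falling members numbered 2 without CPC 3 or control 2. Without CPC 1 and without CPC 2 edgeR called 0 falls, with 1 and 2 at an unadjusted p under 0.05.

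**Figure D1:**
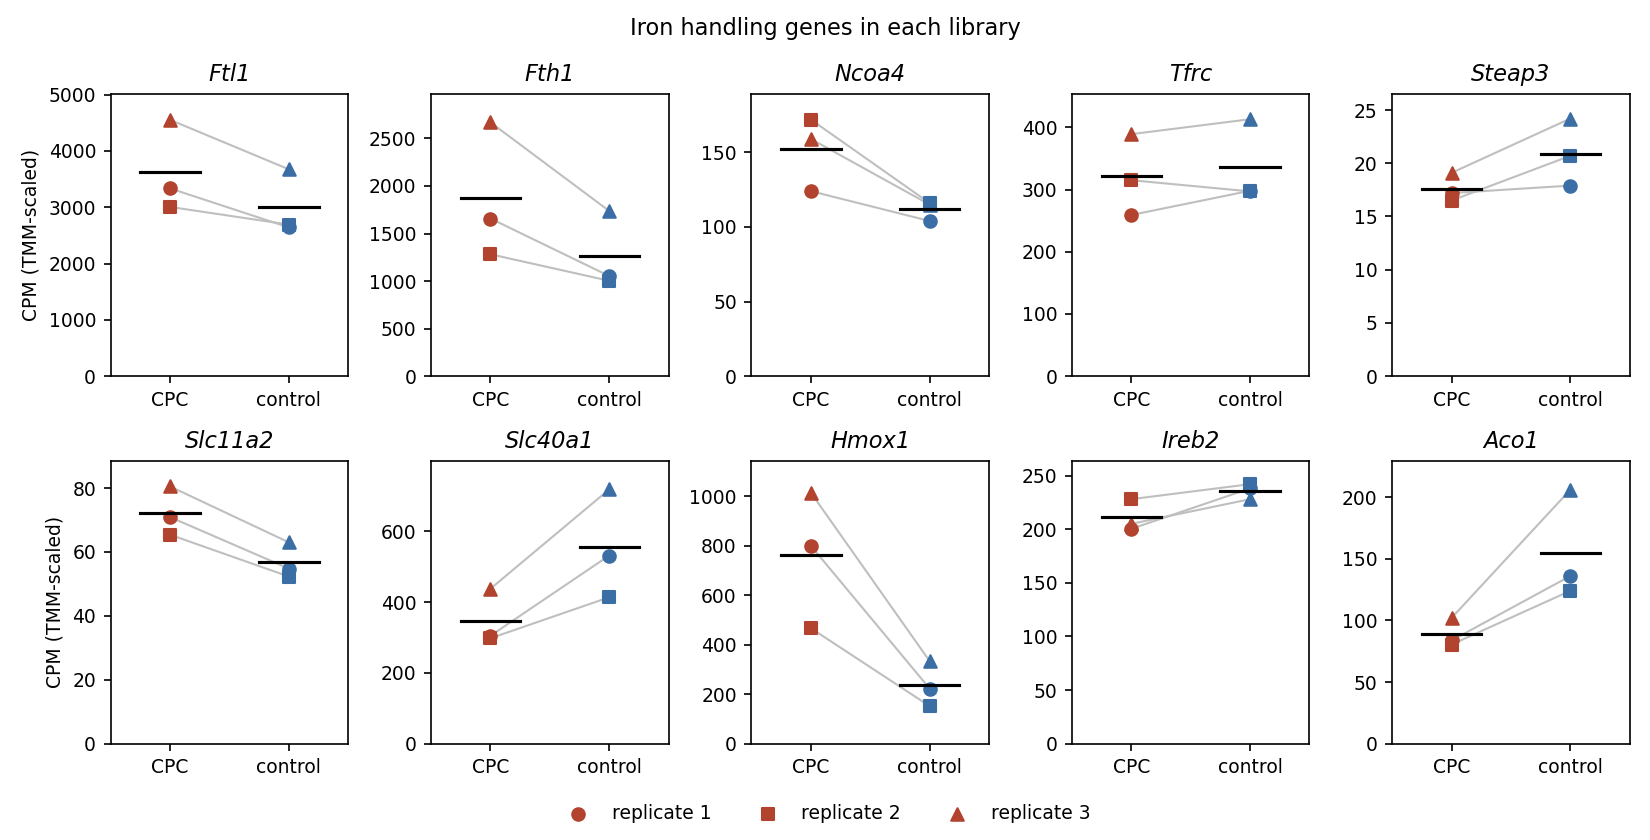
TMM-scaled CPM of the 10 iron genes in each library, CPC at left and control at right. Each panel has its own linear axis from 0, marker shape gives the replicate number, grey lines join equal numbers and black bars are group means of 3 libraries. Hmox1 lies at 467 to 1015 CPM in CPC and 152 to 334 CPM in control, while Tfrc overlaps.

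The largest log2 change among the 10 members was that of Hmox1. This gene encodes heme oxygenase 1, which opens the heme ring and frees its iron (ENSMUSG00000005413, GRCm38.p6 chromosome 8, 75093621 to 75100589). It had 800.1, 467 and 1015 CPM in CPC 1 to 3, against 223, 152 and 334 CPM in control 1 to 3. Every CPC library lay above every control library, and replicate 2 was the lowest of each group. The mean was 761 ± 276 CPM in CPC and 236 ± 92.1 CPM in control (SD, n = 3 each), 3.22-fold higher in CPC (log2 change 1.69 ± 0.38, SE, edgeR adjusted p = 0.0163). Within equal replicate numbers the ratio of CPC to control was 3.59, 3.08 and 3.04. The call was lost without control 1 (log2 change 1.65, edgeR adjusted p = 0.0593).

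Ferritin is a shell of heavy and light chains, in which the heavy chain oxidises iron and the light chain favours mineral formation. Ftl1, the light chain gene (ENSMUSG00000050708, chromosome 7, 45457944 to 45459884), had 3335, 3006 and 4553 CPM in CPC, against 2642, 2692 and 3674 CPM in control. The groups overlapped, since control 3 lay above CPC 1 and CPC 2. The log2 change was 0.27 with a 95% interval from -0.21 to 0.76 (edgeR adjusted p = 0.328). With the replicate block it was 0.27 with an interval from 0.042 to 0.49 (edgeR adjusted p = 0.0473). That blocked call was lost without replicate number 1 in both groups (adjusted p = 0.358) and without number 3 (0.114).

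Fth1, the heavy chain gene (ENSMUSG00000024661, chromosome 19, 9980598 to 9985098), had 1658, 1282 and 2669 CPM in CPC. Control libraries 1 to 3 had 1053, 1003 and 1737 CPM. Again control 3 overlapped the CPC range, while each CPC library exceeded the control of its own number, by 1.57-fold, 1.28-fold and 1.54-fold. The log2 change was 0.56 with a 95% interval from -0.22 to 1.35 (edgeR adjusted p = 0.216). In the blocked fit Fth1 passed at log2 0.54 (interval 0.32 to 0.77, edgeR adjusted p = 0.00173), and it passed without any 1 replicate number as well (adjusted p up to 0.0382).

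The ratio of Fth1 to Ftl1 counts within a library, which no scaling between libraries affects, was 0.497, 0.426 and 0.586 in CPC. It was 0.399, 0.372 and 0.473 in control. The mean was 0.503 ± 0.0801 in CPC and 0.415 ± 0.052 in control (SD, n = 3 each). The groups overlapped (log2 difference 0.27, two-sided exact permutation p = 0.2, where 0.1 is the smallest that 3 against 3 allows). In all 3 pairs of equal number the ratio was higher in CPC, by 0.319, 0.195 and 0.311 on the log2 scale. Ferritin genes have copies elsewhere in the genome, and reads could be split among them. The 3 listed light chain copies held 1.02%, 0.0447% and 0.00118% of the Ftl1 total. The highest was Ftl1-ps1, which is annotated as protein-coding, while the other listed copies are processed pseudogenes. The 2 heavy chain copies held 21 counts against 201195 for Fth1. Adding all listed copies to the parent genes gave a log2 difference of 0.272 in the ratio.

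Ncoa4 encodes the receptor that carries ferritin to the lysosome for iron release (ENSMUSG00000056234, chromosome 14, 32159865 to 32179855). It had 124, 172 and 159 CPM in CPC, against 104, 116 and 115 CPM in control. All CPC libraries lay above all control libraries, with CPC 1 nearest to them. The rise was 1.36-fold (log2 change 0.44 ± 0.13, SE, edgeR adjusted p = 0.0277). Leaving out any library but CPC 1 lost the call (adjusted p up to 0.0971), and the blocked fit kept it (edgeR adjusted p = 0.00135).

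**Figure D2:**
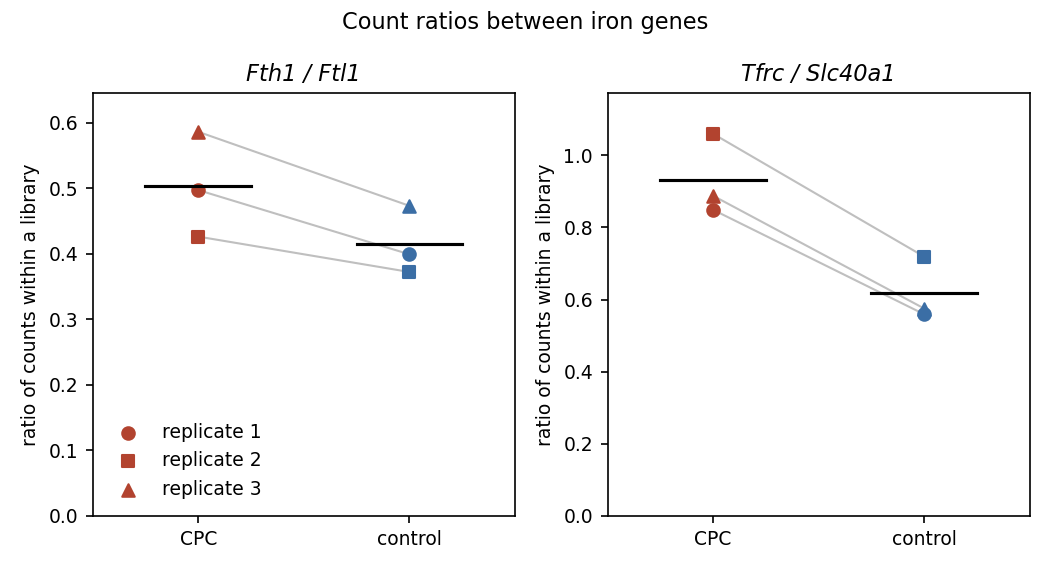
Ratios of counts within each library, Fth1 over Ftl1 at left and Tfrc over Slc40a1 at right, with CPC before control on each axis. Marker shape gives the replicate number, grey lines join equal numbers and bars are means of 3 libraries. The Tfrc to Slc40a1 ratio is 0.849 to 1.06 in CPC and 0.559 to 0.719 in control.

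Of the 3 import genes only Slc11a2 passed the test. Tfrc, the transferrin receptor (ENSMUSG00000022797, chromosome 16, 32608920 to 32632794), carries the 4 elements printed above that the search found in its 3′ UTR. It had 259, 315 and 389 CPM in CPC, against 298, 297 and 413 CPM in control. The groups overlapped, with CPC 1 the lowest of all libraries and control 3 the highest. The log2 change was -0.07 with a 95% interval from -0.51 to 0.38 (edgeR adjusted p = 0.808). The sign turned positive without CPC 1 (0.0812), without control 3 (0.109) and with library sizes alone as scaling (0.0068).

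Steap3, which reduces ferric iron in the endosome (ENSMUSG00000026389, chromosome 1, 120190757 to 120272705), was the lowest member per length. It had 17.2, 16.5 and 19.1 CPM in CPC and 17.9, 20.7 and 24.2 CPM in control, with overlap at CPC 3. Its log2 change was -0.25 (95% interval -0.56 to 0.055, edgeR adjusted p = 0.166). Slc11a2 encodes DMT1, the divalent metal transporter that moves the reduced iron out of the endosome (ENSMUSG00000023030, chromosome 15, 100387898 to 100425072). It had 70.9, 65.4 and 80.5 CPM in CPC, against 54.8, 52.3 and 63 CPM in control. No control library reached the lowest CPC library. The rise was 1.28-fold (log2 change 0.35 ± 0.11, SE, edgeR adjusted p = 0.0363), and within equal numbers it was 1.29-fold, 1.25-fold and 1.28-fold. The call was lost without CPC 1, CPC 3, control 1 or control 2 (adjusted p up to 0.115), and kept in the blocked fit (edgeR adjusted p = 0.00159).

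Export is represented by Slc40a1, which encodes ferroportin, the only iron exporter known in mammalian cells (ENSMUSG00000025993, chromosome 1, 45908068 to 45926523). CPC 1 to 3 had 305, 298 and 438 CPM, and control 1 to 3 had 532, 414 and 719 CPM. Groups overlapped by 1 library each, CPC 3 and control 2. The mean was 347 ± 79.2 CPM in CPC and 555 ± 154 CPM in control (SD, n = 3 each), a log2 change of -0.68 ± 0.24 (SE, edgeR adjusted p = 0.0609). With the replicate block the same gene passed (log2 change -0.66, edgeR adjusted p = 2.96e-04). It also passed without CPC 3 (-0.87, adjusted p = 0.0341) and without control 2 (-0.85, adjusted p = 0.031). In the 3 pairs CPC libraries held 0.572, 0.72 and 0.61 times the control level.

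Macrophages, which recycle iron from heme, are known for high Slc40a1 and Hmox1, and their markers were lower in CPC. Of 15 tested macrophage and leukocyte markers 14 fell by edgeR, against 19.7% of all tested genes. That share is no like measure for C1qa, C1qb, C1qc, Itgam and Mrc1, which had at most 4 counts in any CPC library. They passed the low-count filter only through control, so a fall was the only call open to them. Lyz2 and Cd68, at 5.42 CPM or more in every library, fell as well (edgeR adjusted p = 0.00294 and 0.0332). The summed level of all 16 listed markers was 25.5, 16.1 and 42.5 CPM in CPC, against 226, 281 and 380 CPM in control. Most of the control sum was Lyz2, with 164, 207 and 283 CPM in control and 6.9, 5.42 and 20.7 CPM in CPC. C1qc, a complement gene of tissue macrophages, had 0 counts in each CPC library and 56, 94 and 98 counts in control. In bulk samples fewer cells of a type and less RNA per cell cannot be told apart. Slc40a1 was lower beside these markers while Hmox1 was higher, and the part of macrophage RNA in either result was not tested. Erythroid markers were near 0: 5 of 8, among them both alpha and both beta globin genes, had 0 counts in every library, and the sum was 0.652 to 1.03 CPM in CPC and 0.907 to 1.48 CPM in control.

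The ratio of Tfrc to Slc40a1 counts within a library was 0.849, 1.06 and 0.888 in CPC, against 0.559, 0.719 and 0.575 in control. These values did not overlap. The mean was 0.932 ± 0.111 in CPC and 0.618 ± 0.088 in control (SD, n = 3 each), with a log2 difference of 0.596 (two-sided exact permutation p = 0.1, the smallest that 3 against 3 allows). Equal replicate numbers differed by 0.602, 0.558 and 0.628 on the log2 scale, a narrower spread than either gene alone.

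Of the genes for both iron sensors, Aco1 passed the test and Ireb2 did not, and the difference between them was not tested. Aco1 encodes IRP1, which is a cytosolic aconitase when it carries an iron-sulfur cluster and an RNA-binding protein when it does not (ENSMUSG00000028405, chromosome 4, 40143081 to 40198338). It had 83.7, 80.4 and 102 CPM in CPC, against 136, 124 and 206 CPM in control. No CPC library reached the lowest control library, and control 3 stood highest. The mean was 88.6 ± 11.5 CPM in CPC and 155 ± 44.2 CPM in control (SD, n = 3 each), 1.75-fold lower in CPC (log2 change -0.81 ± 0.20, SE, edgeR adjusted p = 0.0215). The call was lost without CPC 1 (adjusted p = 0.0691) or CPC 2 (0.0742), and the blocked fit kept it (edgeR adjusted p = 1.22e-04).

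Ireb2 encodes IRP2, whose protein is degraded when iron is plentiful (ENSMUSG00000032293, chromosome 9, 54863789 to 54912530). It had 200.3, 228 and 205 CPM in CPC, against 238, 242 and 228 CPM in control. The groups met without overlapping, at CPC 2 and control 3. The log2 change was -0.16 with a 95% interval from -0.34 to 0.015 (edgeR adjusted p = 0.129, and 0.0622 with the block).

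**Figure D3:**
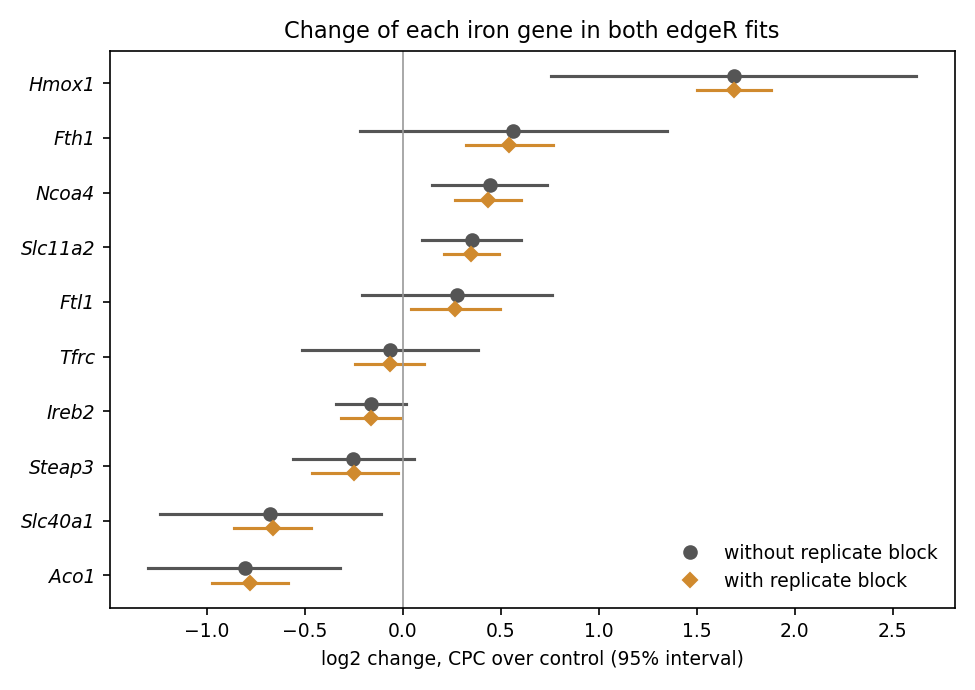
Log2 change of each iron gene, CPC over control, with 95% intervals from 2 edgeR fits, grey circles without and orange diamonds with the replicate number as a block. Estimates hardly move between the fits, and the blocked intervals are narrower: that of Fth1 runs from 0.32 to 0.77, against -0.22 to 1.35 without the block.

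Per kilobase of exon, ferritin dominated the set. Ftl1 ranked 5 among the 15000 tested genes by its mean over all libraries in RPKM, the TMM-scaled CPM divided by exon length in kilobases, and Fth1 ranked 27. The Ftl1 level was 3751 ± 841 RPKM in CPC and 3102 ± 601 RPKM in control (SD, n = 3 each), and that of Fth1 was 1251 ± 480.2 and 846 ± 275 RPKM in CPC and control. Hmox1 followed in CPC at 485 ± 176 RPKM, above Slc40a1 at 103 ± 23.5 RPKM. In control those levels were 151 ± 58.7 RPKM for Hmox1 and 165 ± 45.7 RPKM for Slc40a1, which do not differ beyond their spread. Tfrc stood next at 65.7 ± 13.4 RPKM in CPC and 68.7 ± 13.7 RPKM in control. Ireb2, Ncoa4, Aco1, Slc11a2 and Steap3 made up the lower part, with means of 13.6 to 37.4 RPKM in CPC and 16.3 to 40.9 RPKM in control.

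Of the 10, 8 were highest in replicate 3 of both groups, as were 23.6% of all tested genes. The exceptions were Ncoa4, highest in replicate 2 of both groups, and Ireb2, likewise. Fth1 in replicate 3 lay 0.582 above the mean log2 CPM of CPC and 0.505 above that of control. For Hmox1, replicate 2 had a deviation of -0.633 in CPC and -0.566 in control. What a replicate number shares is not given in the labels. Lyz2, the lysozyme gene of macrophages, was also highest in replicate 3, at 20.7 CPM in CPC 3 and 283 CPM in control 3. The other CPC and control libraries had 5.42 to 6.9 CPM and 164 to 207 CPM. Not every marker of that list followed: Cd14 was highest in replicate 1 of both groups, at 3.21 CPM in CPC and 5.82 CPM in control. Within CPC Ptprc was highest in CPC 1 (0.857 CPM), and within control Csf1r was highest in control 2 (10 CPM). Replicate 1 stood apart in other markers: the summed level of 8 ovarian surface epithelium markers was 384, 104 and 103 CPM in CPC 1 to 3, against 384, 173 and 194 CPM in control 1 to 3. Dcn, a stromal matrix gene and 1 of 9 listed theca and stroma markers, had 80.7 CPM in CPC 1 and 65.3 CPM in control 1. The other libraries had 8.86 to 11 CPM in CPC and 9.2 to 10.3 CPM in control. Col1a1 and Lum of the same list were likewise highest in replicate 1 of both groups. Col1a1 had 132 CPM in CPC 1 and 104 CPM in control 1, against at most 41.9 and 38 CPM in the other CPC and control libraries. Summed over all 9, CPC 1 did not stand apart: it held 1577 CPM, near CPC 2 at 1500.5 CPM, while CPC 3 held 575 CPM. Control 1 held 1361 CPM over the same genes, against 888 CPM for control 2 and 930.4 CPM for control 3. Acta2 and Tagln made up most of each sum, and in CPC they were highest in CPC 2, at 705 and 674 CPM. The part of these markers in the shared variation was not tested.

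**Figure D4:**
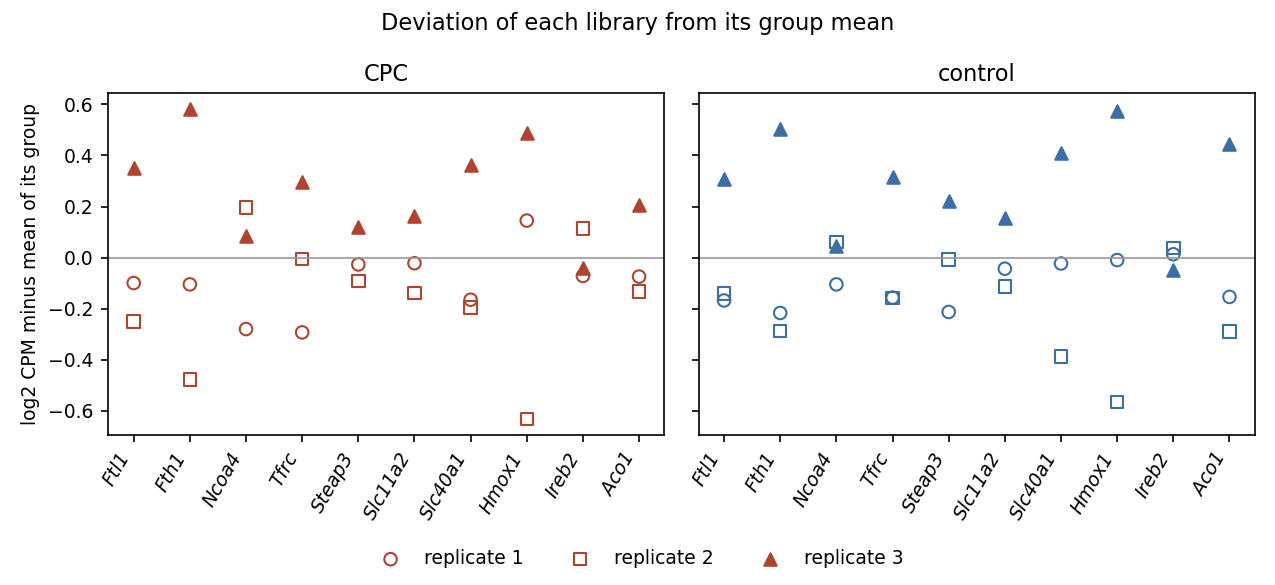
Log2 CPM of each iron gene minus the mean of its own group, CPC in the left panel and control in the right, with marker shape for the replicate number and filled triangles for replicate 3. Replicate 3 lies above 0 for Fth1 by 0.582 in CPC and 0.505 in control, and it is the highest library of both groups for 8 of 10 genes.

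Beyond the members, 6 lists of iron and heme genes held 97 genes with an identifier, of which 86 were tested. By edgeR 19 rose and 16 fell, against 19.6% and 19.7% of all tested genes, and their median log2 change was -0.0106. Without control 1 the numbers were 14 and 10, where 12.6% of all genes rose and 13.3% fell. In the blocked fit 23 rose and 31 fell, where 26.5% of all genes rose and 27.9% fell. With library sizes alone as scaling 23 rose and 10 fell, where 23.9% of all genes rose and 16.4% fell. Lists were described by these counts and were not tested as sets. Blocked counts of single lists below stand against the same 26.5% and 27.9%. Counts without 1 library stand against 12.6% to 17% of all genes for rises and 13.3% to 16.8% for falls.

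Iron uptake genes had 2 of 15 tested members higher and 1 lower, against 19.6% and 19.7% of all genes. Steap1, a metalloreductase of the family of Steap3, had 58.7, 60.4 and 39.6 CPM in CPC, against 17, 14.8 and 10 CPM in control, without overlap (3.79-fold higher, edgeR adjusted p = 0.00173). Slc39a14, a zinc transporter family member that also imports iron not bound to transferrin, was 1.4-fold higher. Scara5, a receptor for ferritin, was 2.05-fold lower, and that call was lost without any library but control 3 (edgeR adjusted p up to 0.118). Falls numbered 0 without CPC 1, CPC 2, CPC 3 or control 1, and 2 without control 3. In the blocked fit 4 rose and 5 fell.

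Genes of export and of the hepcidin axis had 2 of 7 tested members higher and 3 lower, against 19.6% and 19.7% of all genes. Hamp, which encodes hepcidin itself, the liver hormone that degrades ferroportin, had 10 to 36 counts per library. Bmp6, a ligand that raises hepcidin in the liver, had 44 ± 0.997 CPM in CPC and 22.5 ± 7.18 CPM in control (SD, n = 3 each). Tmprss6, a protease that lowers hepcidin, had 10, 9 and 9 counts in CPC and 54, 63 and 90 counts in control. Erfe, which encodes the hormone erythroferrone, was 3.33-fold lower. Rises numbered 1 without control 1.

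Among iron chaperones and genes controlling ferritin and the IRPs, 3 of 11 rose and 1 fell, against 19.6% and 19.7% of all genes. Fbxl5, the ubiquitin ligase subunit that removes IRP2 when iron is plentiful, had 113, 114 and 109 CPM in CPC, against 62.1, 58.8 and 71 CPM in control. Its rise was 1.75-fold, with no overlap (edgeR adjusted p = 7.55e-04). Glrx3, a glutaredoxin that handles iron-sulfur clusters, was 1.35-fold higher, and Cisd2, an iron-sulfur protein of the endoplasmic reticulum, was 1.76-fold lower. Pcbp1, which delivers iron to ferritin, had 0.031 as its log2 change. Falls numbered 2 without CPC 2 and 2 in the blocked fit.

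Heme synthesis had 2 of 13 higher and 5 lower, against 19.6% and 19.7% of all genes. Alas1, the first and rate-limiting enzyme outside the erythroid line, had 88.5, 74.2 and 107 CPM in CPC, against 239, 243 and 284 CPM in control (2.84-fold lower, edgeR adjusted p = 5.89e-04). Cpox, a late mitochondrial enzyme, had 319 ± 2.27 CPM in CPC and 118 ± 26.7 CPM in control (SD, n = 3 each), 2.7-fold higher. Fech, which inserts the iron, had a log2 change of -9.31e-04. Falls numbered 3 without any 1 library but CPC 3.

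Heme breakdown and transport had 2 of 10 higher and 3 lower, against 19.6% and 19.7% of all genes. Flvcr2, a plasma membrane transporter of the family of the heme exporter Flvcr1, had 4.7 ± 0.828 CPM in CPC and 1.38 ± 0.231 CPM in control (SD, n = 3 each), 3.39-fold higher. Flvcr1 was 1.44-fold lower and Abcg2, an efflux pump that accepts porphyrins, was 1.67-fold lower. Hmox2, the constitutive heme oxygenase, had a log2 change of -0.18 (edgeR adjusted p = 0.11), while Hmox1 rose. Hp, the hemoglobin-binding haptoglobin, had 10, 0 and 0 counts in CPC and 430, 114 and 120 counts in control. Rises numbered 1 without CPC 1, CPC 3, control 1 or control 2, and the blocked fit gave 3 rises and 5 falls.

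Mitochondrial iron and iron-sulfur cluster genes had 8 of 30 higher and 3 lower, against 19.6% and 19.7% of all genes. Slc25a37, which encodes mitoferrin-1, an importer of iron into mitochondria, had 116, 118 and 112 CPM in CPC, against 32.2, 32.1 and 37.1 CPM in control (3.4-fold higher, edgeR adjusted p = 8.55e-05). The replicates of each group lay close together and far from the other group. Mms19, which delivers clusters to DNA repair and replication proteins, was 1.52-fold higher. Fdx1, the ferredoxin that passes electrons to mitochondrial steroid enzymes, had 245 ± 45.3 CPM in CPC and 657 ± 134 CPM in control (SD, n = 3 each), 2.69-fold lower. Falls numbered 1 without CPC 1, CPC 2, control 1 or control 3, and 5 without CPC 3. In the blocked fit 8 rose and 8 fell.

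**Figure D5:**
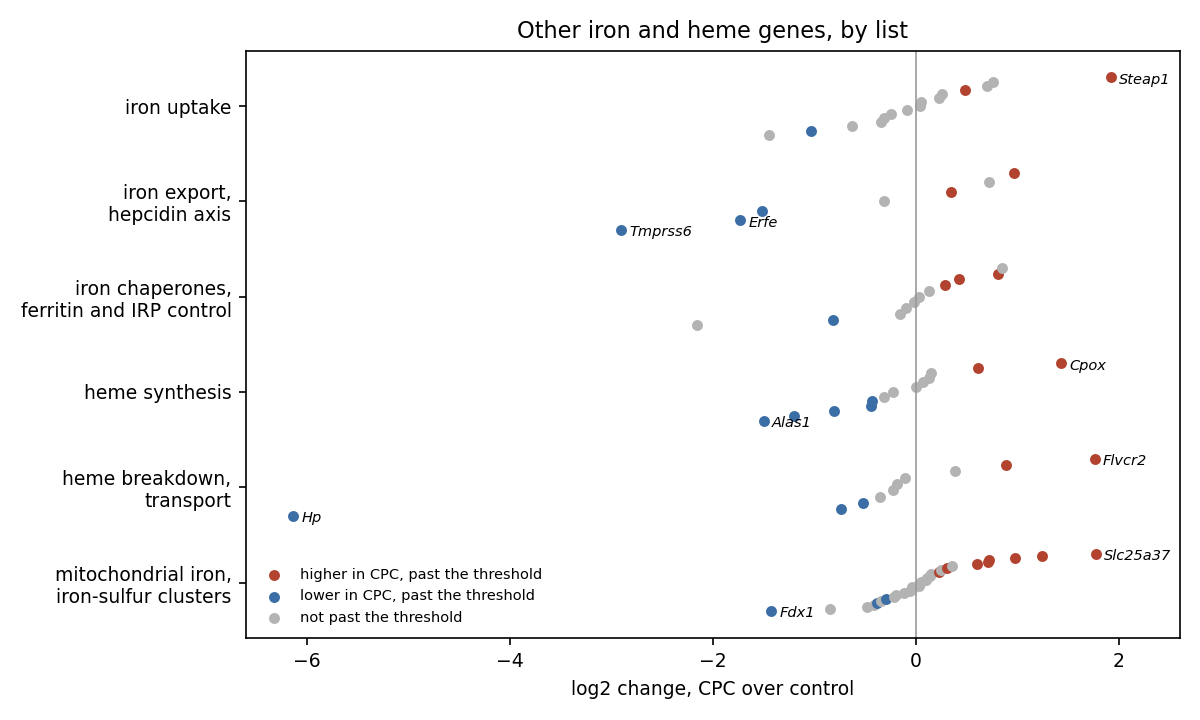
Log2 change, CPC over control, of the 86 tested genes in 6 lists of iron and heme genes, 1 point per gene, red for higher and blue for lower in CPC past the threshold and grey for the rest. Points run both ways in every list, with Slc25a37 at 1.77 and Alas1 at -1.5, and genes named in the text are labelled where they passed beyond 1.2 in either direction.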

How the data were processed

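The authors deposited raw counts per gene, whole numbers for 55487 mouse Ensembl genes with exon lengths and GRCm38.p6 locations, per the file headers. Bowtie2, RSEM and the human build hg19 are listed in the submitters' processing notes, so which aligner and counter made these files is uncertain. RNA was column-purified and made into SMARTER mRNA-seq libraries, per the labels' protocols. No source used here states strand use or the handling of shared reads, so counts of ferritin genes with near-identical copies are uncertain, as are overlapping genes.

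Titles gave group and replicate number. Genes were filtered with filterByExpr (15000 of 26620 with a count kept), scaled by TMM (factors 0.955 to 1.04) and compared with edgeR 4.0.16 in R 4.3.3 (quasi-likelihood, robust, no covariate, Benjamini-Hochberg adjustment). The SE was taken as |log2 change| over the root of F, and 95% intervals use the fit's degrees of freedom. No replicate pair in a group was as close as counting noise (chi-square per degree of freedom at least 17.6). Deviations from group means correlated at 0.626, 0.576 and 0.596 between equal numbers and at -0.342 to -0.238 otherwise, across genes. Deviations in a group sum to 0 for each gene, so positive values at equal numbers bring negative ones elsewhere, which are not separate evidence of pairing. This pairing is read from the data, since no label states it. Alternatives were DESeq2 1.42.0, limma 3.58.1 (voom), RLE factors, library sizes alone, other filters, the replicate block, summed identifiers, added ferritin copies and left-out libraries, plus the block without each replicate number, added after seeing the data. The edgeR script was tested on simulated data.

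Members and lists were chosen with earlier results of these data known. All members are named, with up to 3 called genes of smallest adjusted p per list of iron or NRF2 genes, except 1 that is not reported here, and markers that describe a summed level or lie at 0. Hp, Hamp, Pcbp1, Fech, Hmox2, Nfe2l2, Bach1, G6pdx and Gsr were named after their values were seen. So were the markers C1qa, C1qb, C1qc, Itgam, Mrc1, Cd68, Cd14, Ptprc, Csf1r, Lyz2, Inha, Amh, Cyp19a1, Dcn, Col1a1, Lum, Acta2 and Tagln. Hairpin sequences are from GENCODE M21 transcripts and the promoter stretch from RefSeq (GRCm38.p6).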

Additional observations from a re-analysis of the deposited data

How the results depend on the processing

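Tools and scaling changed few member calls. Under 8 alternatives of tool, scaling, filter, identifiers and copies, 3 member calls differed. DESeq2 added Slc40a1 (adjusted p = 0.00862), for 2 falling members. Without a low-count filter Hmox1 (edgeR adjusted p = 0.0821) and Aco1 (0.076) lost theirs. That left 2 rising and 0 falling members by edgeR, with 3 and 1 at an unadjusted p under 0.05. In that fit the background was lower too, as 10.6% of all genes rose and 10.6% fell. The replicate block gave 5 rising and 2 falling members, where 26.5% of all genes rose and 27.9% fell. Without replicate number 1, 2 or 3 it gave 4, 5 and 4 rising and 2, 3 and 2 falling members. Of all genes 18.9%, 25.9% and 23% rose in those fits, and 21.7%, 25.4% and 24% fell. Without a replicate block, leaving out 1 library or 1 replicate number gave 928 to 2613 rising genes over all (6.18% to 17% of those tested). Falling genes numbered 1033 to 2576 (6.88% to 16.8%). Over the same fits 0 to 3 members rose and 0 to 2 fell. The log2 difference of the Fth1 to Ftl1 ratio was 0.159 to 0.388 without 1 library, and that of Tfrc to Slc40a1 was 0.501 to 0.71. Among the members' log2 changes only that of Tfrc turned sign, to 0.00676 with library sizes alone, 0.0812 without CPC 1 and 0.109 without control 3, and it ranged from -0.221 to 0.109 over the fits that left out libraries. Causes of these changes were not tested. Across 210 member values under 21 alternatives, 170 kept direction and call. Steap3, with 328 to 515 counts per library, had the fewest reads among the members.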

Other observations

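Hmox1, Fth1, Ftl1 and Slc40a1 are textbook targets of the transcription factor NRF2 and its repressor BACH1, and a list of 14 other targets and regulators was read beside them. By edgeR 9 rose and 3 fell, against 19.6% and 19.7% of all tested genes, with a median log2 change of 0.60. Txnrd1, the cytosolic thioredoxin reductase, had 985, 816 and 822 CPM in CPC, against 391, 326 and 429 CPM in control. Abcc1, an exporter of glutathione conjugates, was 2.42-fold higher, and Mafg, a small partner protein of both factors, was 1.56-fold higher. Nfe2l2, which encodes NRF2, had 238 ± 7.79 CPM in CPC and 167 ± 5.03 CPM in control (SD, n = 3 each). Bach1 had 37.1 ± 0.96 CPM in CPC and 44.8 ± 1.53 CPM in control (edgeR adjusted p = 0.0224). Besides Bach1, the falls on this list were G6pdx (log2 change -0.814, edgeR adjusted p = 0.00122) and Gsr (-0.286, edgeR adjusted p = 0.0181), so the list did not move as 1. Over the fits without 1 library rises on this list numbered 6 to 9, where 12.6% to 17% of all genes rose. Falls numbered 1 to 3 over the same fits, where 13.3% to 16.8% of all genes fell. The falls moved by over 1.5 times without CPC 1, CPC 2 or control 1.

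The motif TGACNNNGC, the core of the element that NRF2 binds, was searched on both strands of RefSeq promoter windows of 300 bases (250 before to 50 after a start site, GRCm38.p6). Windows were given for 7 members, and 1 of the 7, Ncoa4, held a match, as did 12.4% of 32851 windows. Hmox1, Slc40a1 and Slc11a2 had no window and were not searched. The match lay at chr14:32165735-32165763 on the plus strand, inside the Ncoa4 gene (32159865 to 32179855) and ahead of an internal start site. Capitals mark the motif.
Ncoa4: aggcggggcgTGACCTGGCcggtagggta
No match in a window says only that these letters are not there, and the factors' binding was not measured.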
